A study of Mus musculus with 8 samples.

Results

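The genes described here encode the voltage-gated sodium and calcium channels, the HCN channels and the sodium leak channel NALCN of the mouse. Members were chosen by gene symbol alone: the sodium channel pores and beta subunits (*Scn*), the calcium channel pores and α2δ subunits (*Cacna*), the calcium channel beta subunits (*Cacnb1* to *Cacnb4*), the HCN pores (*Hcn*), and *Nalcn* with its partners *Unc79* and *Unc80*. This gave 34 genes of the 15039 genes in the table, of which 31 are described, and all counts of channel genes are over these 31. A further 5 protein-coding symbols of the annotation fit the same rule (*Scn4a*, *Scn10a*, *Scn11a*, *Cacna1f* and *Cacna1s*) but had no row and were not analysed here. RNA was sequenced from the prefrontal cortex (PFC) of wild-type male mice of the strain C57BL/6NCrljOri, with 4 libraries per group and 8 in all. All mice were injected bilaterally in the PFC at 6 weeks of age with an adeno-associated virus, and tissue was dissected 4 weeks later. The AAV-RNF146 expressed group received AAV2/1-hsyn-RNF146-eGFP, which carries mouse Rnf146, a ubiquitin ligase, together with eGFP, and the AAV-eGFP expressed group received AAV2/1-hsyn-eGFP. In both viruses the neuronal hsyn promoter drove the insert, while the RNA came from all cells of the dissected tissue. In such bulk RNA, fewer cells of a type and less RNA per cell cannot be told apart.

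Voltage-gated sodium channels open when the membrane is depolarized and carry the rising phase of the action potential. Their large pore subunit is accompanied by small beta subunits that alter gating and surface level. Calcium channels turn the action potential into calcium entry, which triggers transmitter release and activates calcium-dependent enzymes and transcription. Their pore is trafficked and tuned by a cytoplasmic beta subunit and an extracellular α2δ subunit. HCN channels open on hyperpolarization and set the resting conductance of pyramidal cell dendrites, and NALCN carries a steady sodium leak that depolarizes the resting membrane.

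Values are log2 normalized expression between 7.86 and 18.79, and they had been centred within each pair of libraries that share a replicate number, so that a gene carries its mean and 4 pair differences (Rnf146 minus eGFP). Groups of such centred values do not overlap exactly when all 4 pair differences have the same sign. Since the lowest value in the table is 7.86 and not 0, differences of weakly expressed genes near this floor may be compressed. A gene was called where limma, with the pair as a block, gave a Benjamini-Hochberg adjusted p (over all genes) no higher than 0.1. *Rnf146* itself lay between 10.35 and 10.50 in the eGFP libraries and between 13.01 and 13.17 in the Rnf146 libraries, so its level followed the labels. RNA of the vector and of the mouse's own gene was counted together, and the Rnf146 mice taken for sequencing had been chosen by the study for their Rnf146 level and their social deficit. The tissue carried the markers of cortical excitatory neurons, with all 9 in the table. Of the marker lists of neighbouring regions and of oligodendrocytes, only the septal list held calls. Of 4 ependymal markers listed, only *Foxj1* had values, and it was called higher by 0.32 (adjusted p = 0.0493 from limma). All 5 microglia markers were lower in all 4 pairs, against 10.2% of all genes. With the block 0 of these 5 were called and without it 5, against 1.25% and 21.5% of all genes. All 5 septal and basal forebrain markers with values (of 7 listed) were called higher, with list means of 9.17 to 9.38 in the eGFP libraries and 9.71 to 9.92 in the Rnf146 libraries. The 11 striatal markers averaged 9.91 to 10.60 and 10.50 to 11.20 in the respective groups, and the 9 oligodendrocyte markers 11.74 to 12.26 and 12.12 to 12.64. None of the striatal or oligodendrocyte markers was called by limma with the block (10 and 9 had an unadjusted p below 0.05, and 5 and 9 were called without the block), the ranges of both lists overlapped between the groups, and both were lower in pair 1 (-0.11 and -0.14). None of the septal, striatal or oligodendrocyte markers was at the floor of 7.86, the lowest value being 8.38. Some read close to it in the eGFP libraries: *Isl1* at 8.38 to 8.49, *Gpr6* down to 8.40 and *Slc5a7* down to 8.46.

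Of the 31 channel genes, 3 were called: *Cacna2d2* and *Scn9a* were higher and *Cacnb3* was lower in Rnf146-overexpressing mice. Among all genes, 1.25% were called, 0.818% higher and 0.432% lower, against 9.68% of the channel genes. An unadjusted p below 0.05 was found for 12 of the 31, where the share over all genes was 12.4%. The pair differences had the same sign in all 4 pairs for 10 of the 31 (5 higher and 5 lower), against 20.6% of all genes (10.4% higher and 10.2% lower). The median difference over the members was 0.035, and it was 0.001 over all genes. Most differences were small: 27 of 31 had a mean difference under 0.2 in size, against 95.1% of all genes. Without the replicate block, which treats the 8 centred values as independent libraries, 11 of the 31 were called (5 higher and 6 lower), against 21.5% of all genes (11.0% higher and 10.4% lower). With the mean level of the pooled 11 striatal and 5 septal markers as a covariate beside the block, 0 of the 31 were called by limma. An unadjusted p below 0.05 was found for 4 of the 31 there. Only 3 genes of the whole table were called in that fit, and the differences of *Scn9a* (0.23) and *Cacnb3* (-0.22) were close to those without the covariate, while that of *Cacna2d2* was 0.46. Without pair 4, likewise 0 of the 31 were called, 11 with an unadjusted p below 0.05, where 14 genes of the whole table were called higher and 0 lower.

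**Figure D1:**
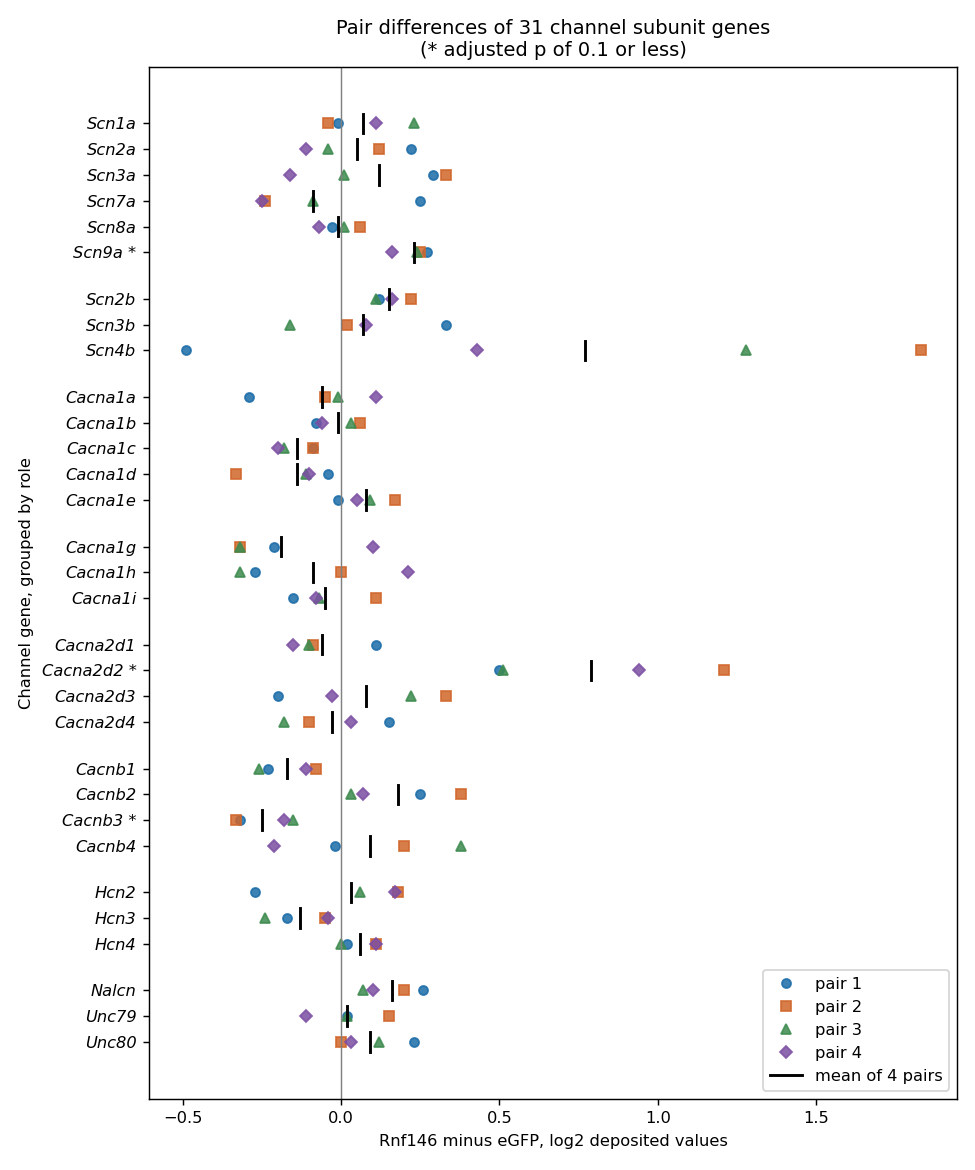
Difference between the Rnf146 and the eGFP library of each pair (x axis, log2) for the 31 channel genes, grouped by role, with 1 symbol per pair and a black bar for the mean of the 4 pairs. An asterisk marks the 3 called genes, and *Scn4b* spans the widest range, from -0.49 to 1.83.

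Among the 6 sodium channel pores described, 1 was called, against 1.25% of all genes. *Scn9a*, the pore known for its part in pain-sensing neurons, differed by a small and even amount. It read 8.86, 8.87, 8.87 and 8.91 in the eGFP libraries against 9.12, 9.11, 9.11 and 9.07 in the Rnf146 libraries, so the groups did not overlap. Since the values are centred within pairs, their closeness within a group restates the even pair differences. It does not show the spread between mice. The pair differences of 0.27, 0.25, 0.24 and 0.16 had a mean of 0.23 (SD 0.04, n = 4 pairs), and limma gave an adjusted p of 0.0758. These values lie close to the floor of the table. Leaving out any 1 pair ended the call, with limma adjusted p-values of 0.111, 0.313, 0.160 and 0.256 without pairs 1, 2, 3 and 4, although the difference stayed between 0.22 and 0.25. A correction for the GC content and length of transcripts ended it too, at 0.20 (adjusted p = 0.109 from limma). *Scn9a* is on chromosome 2 (66310424 to 66465306, minus strand) and overlaps the noncoding gene *Gm13629* on the opposite strand, which had a mean difference of -0.01.

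*Scn9a* stands in a cluster on chromosome 2 with *Scn3a*, *Scn2a*, *Scn1a* and *Scn7a*, and its transcript shares stretches with those of some of them. Reads from such stretches fit more than 1 gene. Of the 31-base words in the canonical *Scn9a* transcript (GENCODE vM39), 7.43% also occurred in transcripts of the other sodium channel pores described. The share was 9.71% for *Scn1a* and 12.3% for *Scn2a*, with *Scn3a* between them, but 0.246% for *Scn8a* and 0.027% for *Scn7a*. How such reads were divided between the genes was not tested. *Scn3a* did not share the pattern of *Scn9a*, with pair differences of 0.29, 0.33, 0.01 and -0.16.

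A set of 14 main pores of cortical neurons (sodium, calcium, HCN and NALCN) held 0 calls by limma with the block. Of the 14, 4 had an unadjusted p below 0.05 and 4 were called without the block. The shares over all genes were 1.25%, 12.4% and 21.5%, so 0 calls among 14 genes lies near the share of all genes. Mean differences of the 14 were all under 0.2 in size, as were 95.1% over all genes. The 4 sodium pores among them were not called. *Scn8a*, the main pore of the axon initial segment in mature neurons, read 13.25, 13.20, 13.23 and 13.27 in the eGFP libraries and 13.22, 13.27, 13.24 and 13.20 in the Rnf146 libraries. The groups overlapped fully, and the mean difference of -0.01 had a 95% interval of -0.11 to 0.10 from limma. *Scn1a*, the pore on which fast-spiking interneurons depend, had a mean difference of 0.07 (95% interval -0.05 to 0.20, adjusted p = 0.649). *Scn2a*, the pore of excitatory axons and dendrites, had 0.05 (-0.09 to 0.19, adjusted p = 0.809 from limma). *Scn3a*, which is most active before birth, averaged 0.12 (-0.07 to 0.30), and it was higher in 3 of 4 pairs. *Scn2a* and *Scn3a* both had positive differences in pairs 1 and 2 and their lowest in pair 4 (-0.11 and -0.16). *Scn7a*, a sodium-sensing channel of glia, was the other uncalled pore, at -0.09 with an adjusted p of 0.733.

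None of the 3 sodium channel beta subunits described was called by limma, where 2 had an unadjusted p below 0.05 and 1 was called without the block. *Scn4b* varied more between pairs than any other member. This gene, which shapes the resurgent sodium current and is abundant in striatal neurons, read 11.42, 10.26, 10.54 and 10.96 in the eGFP libraries and 10.94, 12.10, 11.82 and 11.40 in the Rnf146 libraries. The groups overlapped: the Rnf146 library was below its eGFP partner in pair 1 and above it in the other 3 pairs. The differences of -0.49, 1.83, 1.28 and 0.43 averaged 0.77, less than their SD of 1.01 (n = 4 pairs), and limma gave an adjusted p of 0.356. The 11 striatal markers averaged -0.11, 1.29, 0.68 and 0.27 in the same pairs, the same order of pairs as *Scn4b*. The dopamine receptor gene *Drd2* (0.15, 1.38, 0.96 and 0.49) and the adenosine receptor gene *Adora2a* (-0.15, 1.53, 1.05 and 0.36) are examples. Each of the 11 markers was higher in pairs 2, 3 and 4, and 3 of the 11 were higher in pair 1. Without pair 1, *Scn4b* was called at a difference of 1.18 (adjusted p = 0.0487 from limma). With the striatal and septal covariate its difference turned to -0.43 (adjusted p = 0.863 from limma). With the oligodendrocyte markers as a covariate the *Scn4b* difference was 0.01 (adjusted p = 0.997 from limma). Those 9 markers were also below 0 in pair 1 only, averaging -0.14, 0.47, 0.91 and 0.55 in pairs 1 to 4. The part of the striatal and oligodendrocyte markers in the *Scn4b* values was not tested further.

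*Scn2b* lies next to *Scn4b* on chromosome 9 (45029080 to 45041368 and 45049595 to 45065452, both on the plus strand) but behaved differently. It encodes a beta subunit that is linked to the pore by a disulfide bond. Its values of 12.69, 12.63, 12.69 and 12.66 in the eGFP libraries were all below those of 12.80, 12.85, 12.80 and 12.82 in the Rnf146 libraries. The mean difference of 0.15 had an SD of 0.05 (n = 4 pairs). Its limma adjusted p was 0.217. It was 0.0052 without the block, a fit that treats the 8 centred values as independent and called 21.5% of all genes. *Scn3b*, which is linked to the pore without a disulfide bond, averaged 0.07, with the highest difference of 0.33 in pair 1 and the lowest of -0.16 in pair 3.

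**Figure D2:**
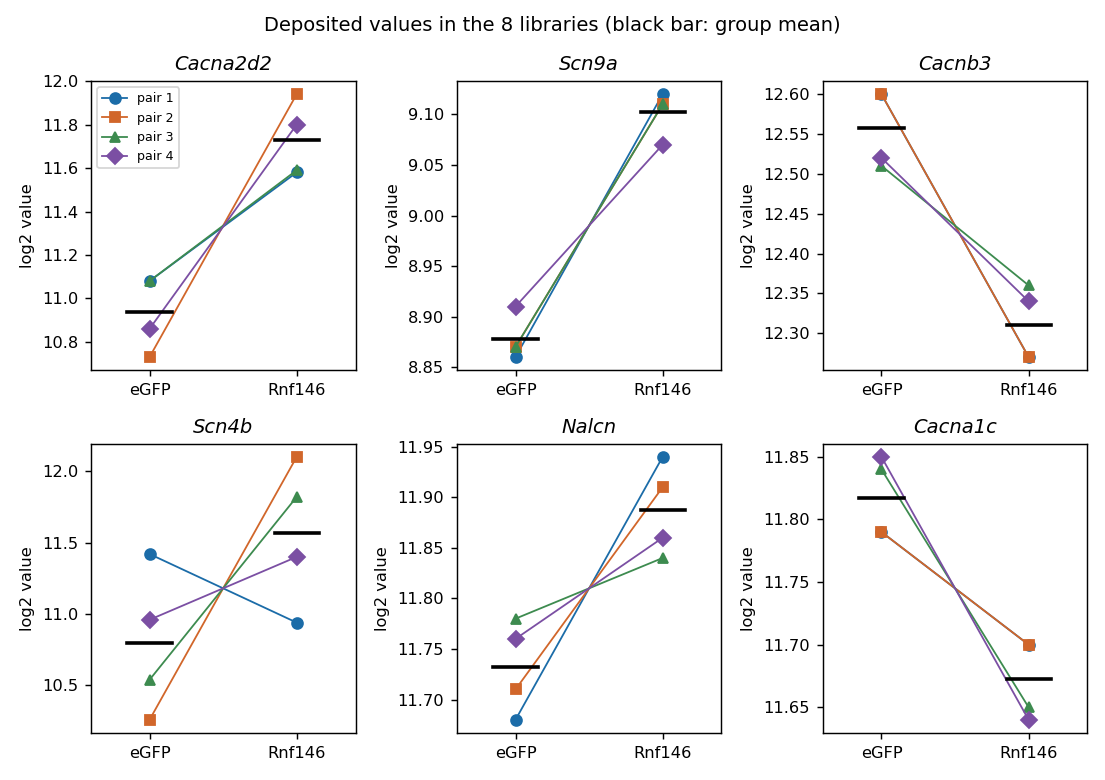
Deposited log2 values (y axis) of 6 channel genes in the 8 libraries, with a line joining the eGFP and the Rnf146 library of each pair and a black bar for each group mean. All lines rise in *Cacna2d2*, *Scn9a* and *Nalcn* and fall in *Cacnb3* and *Cacna1c*, while the lines of *Scn4b* cross, from -0.49 in pair 1 to 1.83 in pair 2.

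The α2δ subunit *Cacna2d2* had the largest mean difference of the 31 genes. α2δ proteins bring calcium channels to the surface and are the target family of the gabapentinoid drugs, and α2δ-2 is the form of cerebellar Purkinje cells. Its values were 11.08, 10.73, 11.08 and 10.86 in the eGFP libraries and 11.58, 11.94, 11.59 and 11.80 in the Rnf146 libraries. Every Rnf146 library exceeded every eGFP library. The differences of 0.50, 1.21, 0.51 and 0.94 averaged 0.79 (SD 0.35, n = 4 pairs), and the adjusted p from limma was 0.0246. Without pair 4 the difference was 0.74 and the call was lost (adjusted p = 0.197), and without any other pair it was kept. With the oligodendrocyte markers as a covariate the difference was 0.74 (adjusted p = 0.136 from limma) and with the striatal and septal markers 0.46 (adjusted p = 0.750). *Cacna2d2* lies on chromosome 9 (107276811 to 107406543, plus strand).

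The other α2δ genes were not called. *Cacna2d1*, the main α2δ form of excitatory neurons, averaged -0.06 with a 95% interval of -0.18 to 0.06. *Cacna2d3* followed the sign of the striatal markers in pairs 1 to 3 (-0.20, 0.33, 0.22 and -0.03) and averaged 0.08. *Cacna2d4*, known from photoreceptors, read between 8.37 and 8.54 in all 8 libraries, close to the floor, and averaged -0.03.

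Both genes called higher were set beside the 5 septal and basal forebrain markers (*Zic1*, *Zic2*, *Zic4*, *Isl1* and *Slc5a7*), which averaged 0.52, 0.74, 0.34 and 0.63 in pairs 1 to 4. *Zic1*, a transcription factor of septal and thalamic neurons, differed by 0.94, 1.44, 0.52 and 1.04. *Cacna2d2* had its highest difference in pair 2, as the septal list did and as the striatal list did (1.29). The *Cacna2d2* differences in pairs 1 and 3 were close to each other, while the septal list was lowest in pair 3. *Scn9a* stayed within 0.16 to 0.27 in all pairs. Markers of inhibitory neurons gave a mixed picture: *Gad1*, *Gad2* and *Slc32a1*, which serve GABA synthesis and its loading into vesicles, were called higher, by 0.45, 0.64 and 0.53 on average. *Gad2* and *Slc32a1* were also highest in pair 2 (0.80 and 0.82), while *Gad1* was highest in pair 1 (0.57). *Pvalb*, *Sst*, *Vip* and *Lhx6*, which mark cortical interneurons, were not called and averaged -0.03, -0.06, -0.23 and -0.11. *Vip* and *Lhx6* were lower in all 4 pairs (adjusted p = 0.143 and 0.436 from limma), and the unadjusted p of *Vip* was 0.00318. The part of these cell types in the channel genes was not tested.

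**Figure D3:**
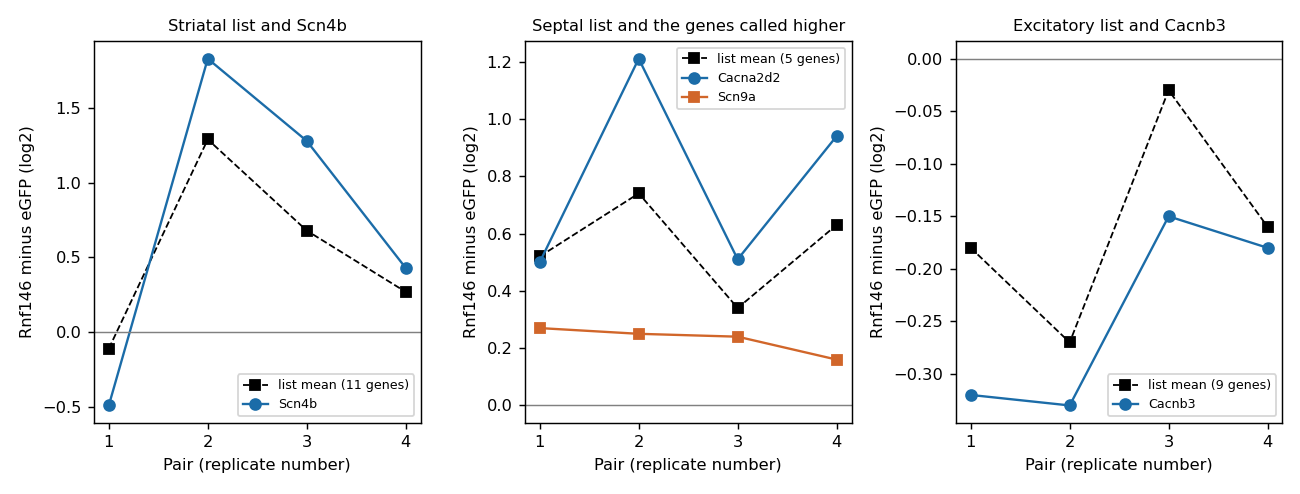
Pair differences (y axis, log2) in pairs 1 to 4 (x axis) for *Scn4b*, for *Cacna2d2* and *Scn9a* and for *Cacnb3* (coloured lines), each beside the mean of a marker list (black dashed line: 11 striatal, 5 septal and 9 excitatory genes). *Scn4b* and the striatal mean are both below 0 in pair 1 and highest in pair 2, at 1.83 and 1.29.

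The cytoplasmic beta subunits of calcium channels differed among themselves in direction. *Cacnb3* was called lower: it read 12.60, 12.60, 12.51 and 12.52 in the eGFP libraries and 12.27, 12.27, 12.36 and 12.34 in the Rnf146 libraries. The groups did not overlap, with differences of -0.32, -0.33, -0.15 and -0.18 (mean -0.25, SD 0.10, n = 4 pairs), and limma put the adjusted p at 0.0922. This call was close to the threshold. It was lost when any 1 pair was left out (limma adjusted p of 0.111, 0.372, 0.113 and 0.294 without pairs 1, 2, 3 and 4), at differences of -0.28 to -0.22. The GC and length correction ended it too (-0.20, adjusted p = 0.145 from limma), and quantile normalization or an untrended variance left it just above the threshold. The 9 excitatory neuron markers averaged -0.18, -0.27, -0.03 and -0.16 in the 4 pairs, with *Slc17a7* and *Neurod2* called lower. The list was not uniform: 7 of the 9 means were below 0, *Rorb* was at 0.00 and *Foxp2* at 0.28. *Foxp2* was higher in 3 of 4 pairs (adjusted p = 0.220 from limma). *Cacnb3* thus had its largest decrease in pair 2 and its smallest in pair 3, the same pairs as the excitatory list. Its decrease in pair 1 (-0.32) was almost as large as in pair 2. The 5 microglia markers had their largest and smallest decreases in these pairs too, with means of -0.24, -0.31, -0.10 and -0.11. The part of either list in *Cacnb3* was not tested.

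*Cacnb1*, which is the beta subunit of skeletal muscle and is also made in brain, was lower in all 4 pairs (11.99 to 12.08 in the eGFP libraries and 11.82 to 11.91 in the Rnf146 libraries). Its mean difference of -0.17 (SD 0.09, n = 4 pairs) did not pass the test (adjusted p = 0.202 from limma). *Cacnb2*, the beta subunit of heart muscle, had positive differences in all 4 pairs, 0.25, 0.38, 0.03 and 0.07, with an adjusted p of 0.305. *Cacnb4*, the form mutated in lethargic mice, averaged 0.09, its differences being -0.02, 0.20, 0.38 and -0.21. Of the 4 beta subunits, 1 was called and 3 had the same sign in all pairs, against 1.25% and 20.6% of all genes.

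The pores of the high-voltage-activated calcium channels (Cav1 and Cav2) were not called, 0 of 5 by limma with the block, where 2 had an unadjusted p below 0.05 and the same 2 were called without the block. These were the L-type pores, which couple calcium entry to transcription. *Cacna1c* read 11.79, 11.79, 11.84 and 11.85 in the eGFP libraries and 11.70, 11.70, 11.65 and 11.64 in the Rnf146 libraries. All of its differences were below 0, from -0.20 to -0.09, with a mean of -0.14 (SD 0.06, n = 4 pairs), and the test was not passed (adjusted p = 0.255 from limma). *Cacna1d* was lower by 0.04, 0.33, 0.11 and 0.10 in the 4 pairs, with most of its mean of -0.14 from pair 2 (adjusted p = 0.342 from limma). With the striatal and septal covariate, the *Cacna1d* difference was 0.01 and that of *Cacna1c* was -0.16. The presynaptic pores, which drive transmitter release, showed smaller differences. *Cacna1a* (P/Q-type) averaged -0.06 with a 95% interval of -0.21 to 0.09, *Cacna1b* (N-type) -0.01 (-0.12 to 0.09) and *Cacna1e* (R-type) 0.08 (-0.04 to 0.19). *Cacna1a* was lowest in pair 1 (-0.29) and above 0 only in pair 4 (0.11).

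The T-type pores (Cav3), which open near the resting potential and support burst firing, all had negative means, and 0 of 3 were called by limma (1 with an unadjusted p below 0.05). *Cacna1g* read 12.20, 12.26, 12.26 and 12.05 in the eGFP libraries and 11.99, 11.93, 11.93 and 12.14 in the Rnf146 libraries. It was lower in pairs 1 to 3 and higher in pair 4, with a mean of -0.19. The SD over its 4 pairs was 0.20 and the adjusted p was 0.331 from limma. *Cacna1h* had the same signs in pairs 1, 3 and 4 (-0.27, -0.32 and 0.21) and was at 0.00 in pair 2, and *Cacna1i* averaged -0.05 (95% interval -0.17 to 0.07).

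**Figure D4:**
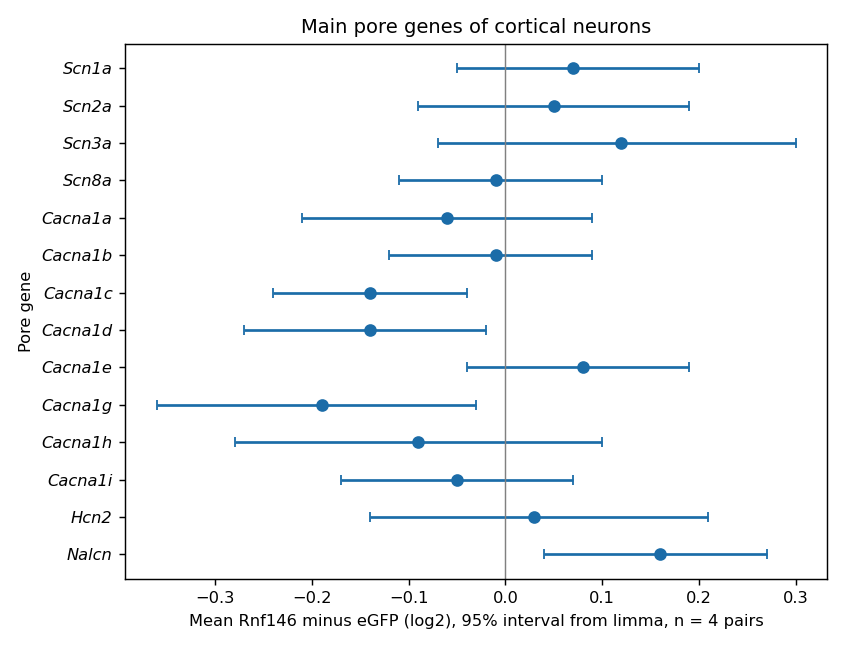
Mean difference between Rnf146 and eGFP libraries (x axis, log2) with its 95% interval from limma (horizontal bars, n = 4 pairs) for 14 pore genes (y axis). None of the 14 was called, against 1.25% of all genes, and their means run from -0.19 for *Cacna1g* to 0.16 for *Nalcn*.

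None of the 3 HCN genes described was called by limma, 1 having an unadjusted p below 0.05. *Hcn2*, which is broadly made in the brain, was lower in pair 1 (-0.27) and higher in the other pairs (0.18, 0.06 and 0.17). Its mean was 0.03 and turned to -0.16 with the striatal and septal covariate and to -0.13 with the oligodendrocyte markers. *Hcn3* was lower in all 4 pairs, by 0.17, 0.05, 0.24 and 0.04 (adjusted p = 0.383 from limma). *Hcn4*, the pacemaker channel of the sinus node, read between 8.83 and 8.95 and had a mean difference of 0.06.

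All 3 genes of the NALCN complex had positive means, and none was called by limma, 1 having an unadjusted p below 0.05. *Nalcn* read 11.68, 11.71, 11.78 and 11.76 in the eGFP libraries and 11.94, 11.91, 11.84 and 11.86 in the Rnf146 libraries, so the groups did not overlap. Its differences of 0.26, 0.20, 0.07 and 0.10 averaged 0.16 (SD 0.09, n = 4 pairs). The limma adjusted p was 0.241. Without the block, a fit that treats the centred values as independent and called 21.5% of all genes, it was 0.0158. *Unc80*, which bridges the channel and UNC79, averaged 0.09 (95% interval -0.03 to 0.21), and *Unc79* averaged 0.02 (-0.10 to 0.14).

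Other genes of these channel complexes were read from a list of 41, of which 35 had values: FGF homologous factors, anchors of the axon initial segment, regulators of sodium and calcium channels, calcium channel gamma subunits, and partners of HCN and NALCN. Of the 35, 1 was called, higher, against 1.25% of all genes. It was *Cacng5*, a gamma subunit that serves AMPA receptors rather than calcium channels, with differences of 0.58, 0.59, 0.09 and 0.40 (mean 0.42, adjusted p = 0.0821 from limma). As in the septal marker list and in *Gad1* (0.26), the difference was lowest in pair 3. With the striatal and septal covariate the *Cacng5* difference was 0.40 (adjusted p = 0.826 from limma). The part of these markers in *Cacng5* was not tested. No partner gene was called higher without pair 2 or without pair 4, where 39 and 14 genes of the whole table were. The related AMPA receptor subunits *Cacng4* and *Cacng3* had opposite directions in all 4 pairs, 0.24 and -0.22 on average, with adjusted p-values of 0.156 and 0.128 from limma. *Rimbp2*, which links calcium channels to the release machinery, averaged -0.21, and *Rem2*, an inhibitor of calcium channels that neuronal activity induces, 0.20 (adjusted p = 0.221 and 0.336 from limma). *Fgf14*, a sodium channel partner at the axon initial segment, was higher in all 4 pairs by 0.13 on average. The ankyrin gene *Ank2*, the spectrin gene *Sptan1* and *Prrt2*, which limits sodium currents, had the same sign in all 4 pairs with means of 0.02, -0.08 and -0.07. The means of *Stac3* and *Nalf2*, also of the same sign in all pairs, were -0.09 and -0.08.

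The promoters of *Cacna2d2*, which was higher, and *Cacnb3*, which was lower, are shown to compare genes that moved in different directions. Each window runs from 250 bases before to 50 bases after the canonical start site (GENCODE vM39 on GRCm39), 5′ to 3′ along the gene, and capitals mark matches to the GC box GGGCGG on either strand. The *Cacna2d2* window is chr9:107276561-107276860 (plus strand) and the *Cacnb3* window chr15:98532736-98533035 (plus strand).
Cacna2d2: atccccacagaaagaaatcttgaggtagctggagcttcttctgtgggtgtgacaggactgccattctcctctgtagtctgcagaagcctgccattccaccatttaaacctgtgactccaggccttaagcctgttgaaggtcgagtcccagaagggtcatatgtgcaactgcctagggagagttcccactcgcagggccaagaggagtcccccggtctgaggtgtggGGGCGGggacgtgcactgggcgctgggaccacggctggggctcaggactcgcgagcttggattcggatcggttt
Cacnb3: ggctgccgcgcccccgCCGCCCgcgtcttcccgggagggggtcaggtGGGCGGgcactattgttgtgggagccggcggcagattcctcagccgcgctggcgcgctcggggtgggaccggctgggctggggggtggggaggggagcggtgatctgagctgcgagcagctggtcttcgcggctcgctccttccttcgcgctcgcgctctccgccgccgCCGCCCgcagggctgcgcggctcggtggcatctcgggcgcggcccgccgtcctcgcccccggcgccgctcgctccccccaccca
The GC content was 58.0% for *Cacna2d2* and 78.0% for *Cacnb3*, where the median over 21757 protein-coding promoters was 54.3%. The *Cacna2d2* window held 1 GC box and the *Cacnb3* window 3 GC boxes. A GC box was present in 42.5% of all promoters of this length and in 16 of the 31 channel promoters. The core of Zic sites, CAGCAGG (10.1% of all promoters), the E-box CAGATG of neurogenic factors (15.3%), the cAMP response element TGACGTCA (2.45%) and TTCAGCACC, a part of the element bound by the repressor REST (0.308%), were not found in either window. The *Scn9a* window held none of the 5 motifs.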

How the data were processed

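Stranded mRNA libraries were made from the PFC, 4 for each virus, and the group and replicate number of each came from its title. The authors used Cutadapt for trimming and Salmon (v1.9.0) for quantification against GENCODE vM30 (GRCm39), and DESeq2 is among the tools of the submitters' processing notes. The deposited values are log2 values, although described as normalized counts, and no count-based test could be run on them. For each gene the sum of the eGFP and Rnf146 values was identical in the 4 pairs (largest spread 1.4e-13). This centring is not described in the sources used here, and it fixes the correlation between same-numbered libraries. The depth of the libraries is unknown. Whether same-numbered mice shared a day or batch is not given in the sources used here.

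A linear model with group and replicate number (the block) was fitted to all 15039 genes with trended variances, using limma 3.58.1 under R 4.3.3. This leaves 3 residual degrees of freedom, and p-values were adjusted by Benjamini-Hochberg. These p-values weigh the mean pair difference against the spread of the 4 pair differences, with variances moderated over genes. Differences in level between pairs were removed by the centring and are not part of them. The smallest two-sided p of an exact sign-flip test over 4 pairs is 0.125, so none was used. The code was tested on simulated data. The members, gene lists and tests were chosen with earlier results of these data known. Named were the called members, those with 4 pair differences of the same sign, the member with the largest difference of each role and 14 main cortical pores. *Scn3b*, *Scn7a*, *Cacna2d1*, *Cacna2d3*, *Cacna2d4*, *Cacnb4*, *Hcn4*, *Unc79*, *Unc80* and the marker genes are not covered by it and were picked with their values in view. Positions, GC content and length came from GENCODE vM39 on GRCm39, with GC content and length for 14590 genes (97.0%). Some members are not reported here.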

Additional observations from a re-analysis of the deposited data

How the results depend on the processing

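Alternatives were no replicate block, each pair left out, median centring, quantile normalization, removal of weakly expressed genes, untrended and robust variances, an adjusted p of 0.05, marker covariates beside the block, and correction for GC content and length. The cause of a change was not tested. Higher and lower calls numbered 123 and 65 over all genes, 2 and 1 over the channel genes, and 1 and 0 over the partners. Without the replicate block they were 1655 and 1571, 5 and 6, and 5 and 5. With the striatal and septal covariate they were 2 and 1, 0 and 0, and 0 and 0, and the median difference of the members was -0.015. With the oligodendrocyte covariate, 127 genes were higher and 121 lower over all genes, 0 members were higher and 1 was lower, and 2 partners were higher and 2 lower. At an adjusted p of 0.05, 67 and 13 of all genes, 1 and 0 members and 0 partners remained past the threshold. After GC and length correction, 124 of all genes were higher, and 43 of all genes and 0 members were lower, and 0 members were lower with quantile normalization or untrended variances. With 1 pair left out, 14 to 302 genes were higher and 0 to 119 lower, 0 to 2 and 0 of the members, and 0 to 1 and 0 to 1 of the partners, and the median of the members was -0.002 to 0.042.

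Some differences changed sign. These were *Scn1a* (-0.02) and *Hcn2* (-0.13) with the oligodendrocyte covariate and *Scn8a* (0.02) with quantile normalization. With the striatal and septal covariate they were *Scn4b* (from 0.77 to -0.43), *Cacna1d* (from -0.14 to 0.01), *Cacna1e* (-0.01) and *Hcn2* (-0.16). With 1 pair left out the ranges crossed 0 for *Scn2a* (-0.01 to 0.10), *Scn8a* (-0.03 to 0.01), *Cacna1a* (-0.12 to 0.02), *Cacna1b* (-0.04 to 0.01) and *Hcn2* (-0.01 to 0.14). The difference of *Rnf146* lay between 2.58 and 2.69 with 1 pair left out, was 2.78 with the striatal and septal covariate and 2.73 with the oligodendrocyte covariate, and stayed called in all settings run.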
